A study of Mus musculus with 2 samples.

Results

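Interferon-stimulated genes are the genes that a cell switches on when interferon binds its receptors. The 42 genes described here were taken from a list of symbols, with no rule on their measured values, and all 42 were found among the 55416 genes of the deposited count table. They were read in bulk RNA-seq libraries from 2 murine rhabdoid tumors (RT), aggressive tumors that in humans arise in early childhood and lack SMARCB1, part of the chromatin remodelling machinery SWI/SNF. Both tumors arose in Dppa3-cre::Smarcb1 Fl/+ mice, which carry 1 floxed and 1 wild-type Smarcb1 allele on a C57BL/6 background. The Cre recombinase was knocked into the Dppa3 locus, a gene of primordial germ cells, so that Smarcb1 was to be recombined in that lineage, and no other agent or treatment was given in the labels. One tumor was labelled intracranial and lay at the trigeminal nerve, the other was labelled extracranial and lay in the facial and maxillar region, and both were classed as MYC. The sources used here gave neither age nor sex of the mice for these libraries. Each location had 1 library, so no difference below has a replicate check, no p-value is given, and location cannot be told apart from the individual tumor, its host or its dissection.

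The intracranial library held 34545846 counts and the extracranial library 26915696 counts. Smarcb1 was counted 365 times in the intracranial and 530 times in the extracranial library (10.5 and 19.8 CPM, the count scaled to a common library size), and without a wild-type library these values check neither the genotype nor the recombination. The labels were also set against marker genes. Keratinocyte genes summed to 24749 CPM in the library labelled intracranial and to 6.43 CPM in the library labelled extracranial, where 6 of 10 were at 0, and the 10 Schwann cell genes summed to 251.5 and 251.6 CPM. Both libraries are therefore named by their labels only, and with 1 library per location no result could be repeated without either of them.

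Type I interferons bind the receptor chains IFNAR1 and IFNAR2, whose kinases JAK1 and TYK2 phosphorylate STAT proteins, STAT2 among them. STAT2 acts with IRF9 in the complex ISGF3, which binds the interferon-stimulated response element (ISRE), a repeat of GAAA. Interferon gamma acts through IFNGR1, IFNGR2, JAK1 and JAK2 on factors that bind the gamma-activated site (GAS), a palindrome of TTC and GAA. The induced proteins bind viral RNA, degrade RNA, conjugate ISG15, sense nucleic acids or attack the vacuoles of parasites, and several of them feed back on the pathway itself. In tumors, both malignant cells and infiltrating leukocytes can carry this program.

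Words that resemble the ISRE and the GAS were searched for in the promoters of the 42 genes. RefSeq promoter windows (GRCm38.p6, 250 bases before to 50 bases after the start site) were matched for 32 of them. The ISRE-like word GAAANNGAAA, or TTTCNNTTTC on the other strand, lay in the window of 20 of these 32 genes (62.5%), and in that of 1079 of all 27025 symbols with a window (3.99%). The GAS-like word TTCNNNGAA, which reads the same on both strands, was found in 11 of 32 genes (34.4%) and in 2582 of all symbols (9.55%). Of the 32 genes 7 held both words, among them Oas1a, Bst2, Igtp and Irgm2, and 8 held neither. Such a match is a description of the letters and not a proven binding site. The following 200 bases upstream of the start site are printed 5′ to 3′ on the strand of the gene, with the ISRE-like and GAS-like words in capitals, because these 7 genes stand for the promoter types and for the pairs whose levels are compared further on.
Isg15, chr4:156200819-156201018, minus strand: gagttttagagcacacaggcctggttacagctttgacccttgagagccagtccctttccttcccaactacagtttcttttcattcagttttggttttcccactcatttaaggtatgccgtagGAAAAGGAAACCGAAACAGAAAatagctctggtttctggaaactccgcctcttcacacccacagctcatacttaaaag
Ifit1, chr19:34640689-34640888, plus strand: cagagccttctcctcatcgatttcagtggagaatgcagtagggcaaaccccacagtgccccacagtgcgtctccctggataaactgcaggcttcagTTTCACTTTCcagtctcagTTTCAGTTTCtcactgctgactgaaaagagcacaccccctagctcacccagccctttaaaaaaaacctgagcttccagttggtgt
Ifit3, chr19:34583329-34583528, plus strand: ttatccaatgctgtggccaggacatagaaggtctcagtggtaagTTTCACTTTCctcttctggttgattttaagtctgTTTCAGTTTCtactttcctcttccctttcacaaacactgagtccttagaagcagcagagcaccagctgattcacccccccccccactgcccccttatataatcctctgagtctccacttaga
Ifit3b, chr19:34607757-34607956, plus strand: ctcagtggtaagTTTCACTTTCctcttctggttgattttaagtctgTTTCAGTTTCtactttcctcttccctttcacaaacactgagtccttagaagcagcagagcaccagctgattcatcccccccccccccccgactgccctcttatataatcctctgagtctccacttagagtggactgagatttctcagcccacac
Gbp2, chr3:142620463-142620662, plus strand: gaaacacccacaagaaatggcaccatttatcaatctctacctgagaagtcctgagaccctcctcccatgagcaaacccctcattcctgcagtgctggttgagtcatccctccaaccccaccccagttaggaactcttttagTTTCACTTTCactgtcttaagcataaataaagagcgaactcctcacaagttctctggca
Igtp, chr11:58199356-58199555, plus strand: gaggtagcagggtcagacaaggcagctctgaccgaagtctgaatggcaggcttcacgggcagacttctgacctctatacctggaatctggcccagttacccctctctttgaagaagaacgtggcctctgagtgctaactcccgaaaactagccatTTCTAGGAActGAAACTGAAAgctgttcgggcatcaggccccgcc
Irf1, chr11:53769814-53770013, plus strand: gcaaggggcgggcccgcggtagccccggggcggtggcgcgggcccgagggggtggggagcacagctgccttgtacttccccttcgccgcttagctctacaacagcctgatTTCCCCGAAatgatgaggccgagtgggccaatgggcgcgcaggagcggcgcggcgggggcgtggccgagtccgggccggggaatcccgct
Isg15 carried 3 overlapping ISRE-like words between 78 and 57 bases before its start site, which form 1 unbroken run of GAAA repeats. Ifit1, Ifit3 and Ifit3b each carried 2 separate ISRE-like words. Gbp2 had 1 ISRE-like word, Igtp had a GAS-like word just before an ISRE-like word, and Irf1 had a GAS-like word only. Across all windows of the 42 genes, 30 ISRE-like words were found, of which 26 lay before the start site and 25 within its last 200 bases.

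**Figure D1:**
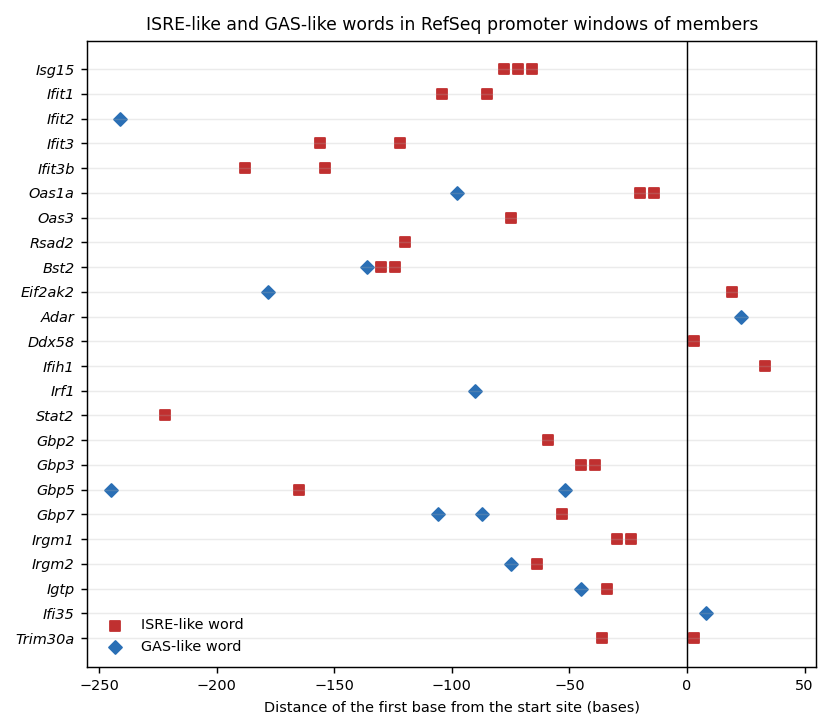
Positions of ISRE-like words (squares) and GAS-like words (diamonds) in the RefSeq promoter windows of the interferon-stimulated genes that hold at least 1 of them, as the distance in bases of the first base of the word from the start site (vertical line at 0). Most squares lie between the start site and 200 bases before it, and Isg15, Oas1a, Bst2, Gbp3 and Irgm1 show overlapping words.

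All 42 genes were expressed in both tumors. Their counts ran from 332 (Oasl1) to 7036 (Ifit1) in the intracranial and from 282 (Ifi44) to 4464 (Bst2) in the extracranial library, far above the floor of 3 counts. They summed to 0.220% and 0.260% of all counts, or 2189 and 2610 CPM, a ratio of 1.19. The median gene had 41.2 CPM in the intracranial and 55.1 CPM in the extracranial library. Per kilobase of summed exon length, the scale used to compare levels between genes, the medians were 8.90 and 11.9 CPM per kilobase. Among all genes above the floor in either library, the median interferon-stimulated gene then stood at percentile 76.4 and 81.2, and 40 and 41 of the 42 genes stood above percentile 50. In bulk tissue, fewer cells of a type and less RNA per cell cannot be told apart.

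The order of the levels was similar in both tumors, with Pearson's r = 0.94 and Spearman's rho = 0.92 over the 42 genes on the CPM per kilobase scale, a description across genes that share the same libraries. Bst2, which encodes the membrane protein tetherin that holds budding virions on the cell, had the highest level, at 185.3 and 184.7 CPM per kilobase. Isg15 followed with 90.8 and 99.95, and Ifi27 had 61.8 and 72.3 CPM per kilobase. Ifit1 had 76.2 CPM per kilobase in the intracranial and 37.5 in the extracranial library. At the low end stood Oas3 with 1.75 and 2.49, Ifi44 with 2.09 and 1.72, and Gbp5 with 2.43 and 2.46 CPM per kilobase.

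**Figure D2:**
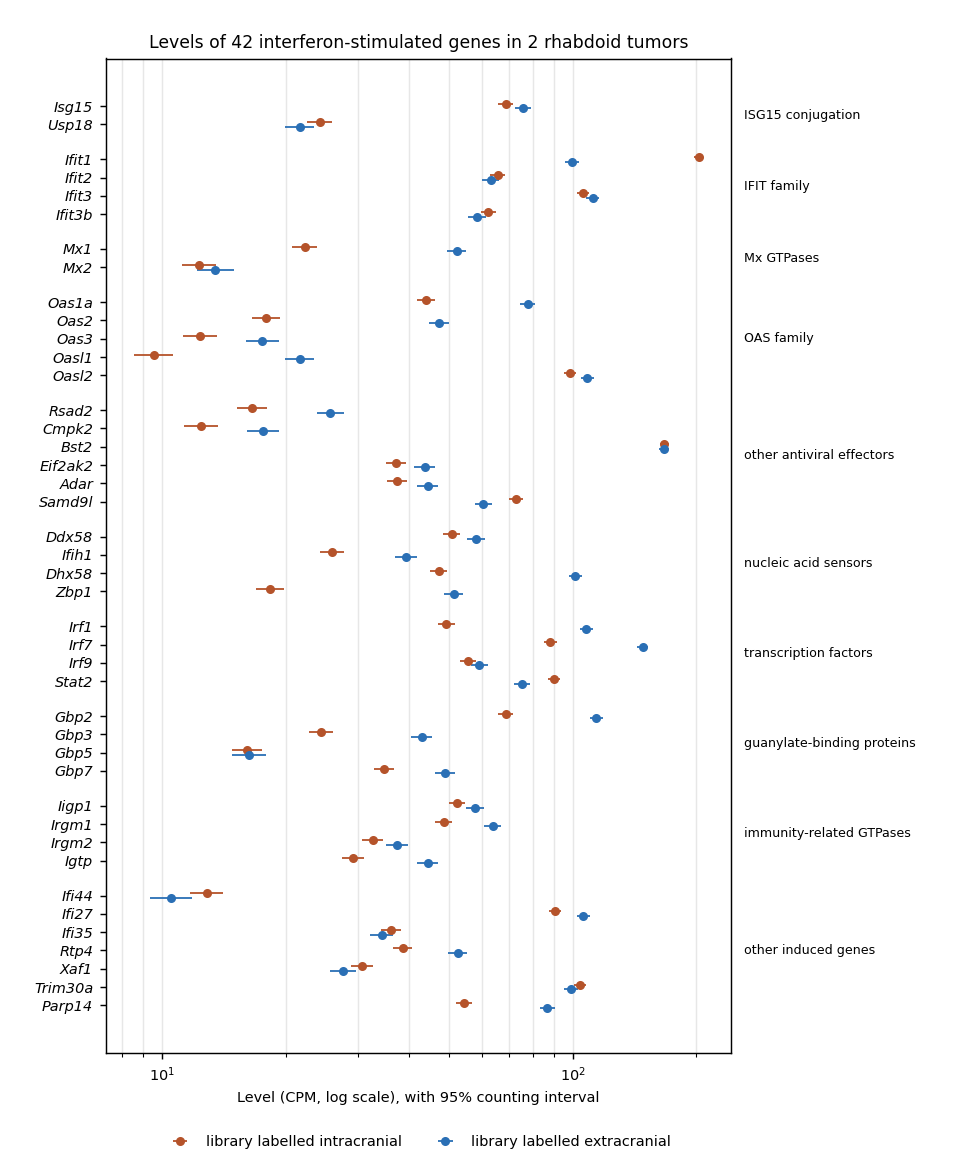
Level in CPM (log axis) of each of the 42 interferon-stimulated genes, grouped by role, in the intracranial library (brown) and the extracranial library (blue), with bars for the 95% counting interval. Bst2 and Gbp5 coincide in both libraries, Ifit1 is the only gene more than 2-fold higher in the intracranial library, and Zbp1 and Oas2 show the widest gap the other way.

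Between the tumors, the 42 genes differed little in size and mostly in 1 direction. A log2 ratio of the extracranial over the intracranial library was formed for each gene after TMM scaling, with an exact binomial 95% interval that covers counting error only. The median log2 ratio was 0.23, against -0.04 over all 21977 genes with at least 10 counts. The interval lay wholly above 0 for 28 genes, wholly below 0 for 7 and spanned 0 for 7. Over all genes tested, 29.2% had intervals above 0 and 32.2% below 0, shares that also depend on how many counts a gene has. The ratios of the 42 genes ran from -1.02 (Ifit1) to 1.49 (Zbp1). The ratio stayed within 2-fold for 35 of the 42 genes (83.3%), against 72.4% of all genes tested.

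No gene of the 42 had its whole interval beyond 4-fold. Over all genes tested, that share was 1.78% in favour of the extracranial and 5.41% in favour of the intracranial library. Beyond 2-fold, 5 of the 42 (11.9%) were higher in the extracranial library, against a background of 5.86%, and 0 were higher in the intracranial library, against a background of 9.77%. The 5 genes were Zbp1, Oas2, Mx1, Irf1 and Dhx58. Just outside the 2-fold limit lay Oasl1, whose interval reached down to 0.98 on the log2 scale, and Ifit1, whose interval reached up to -0.96.

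**Figure D3:**
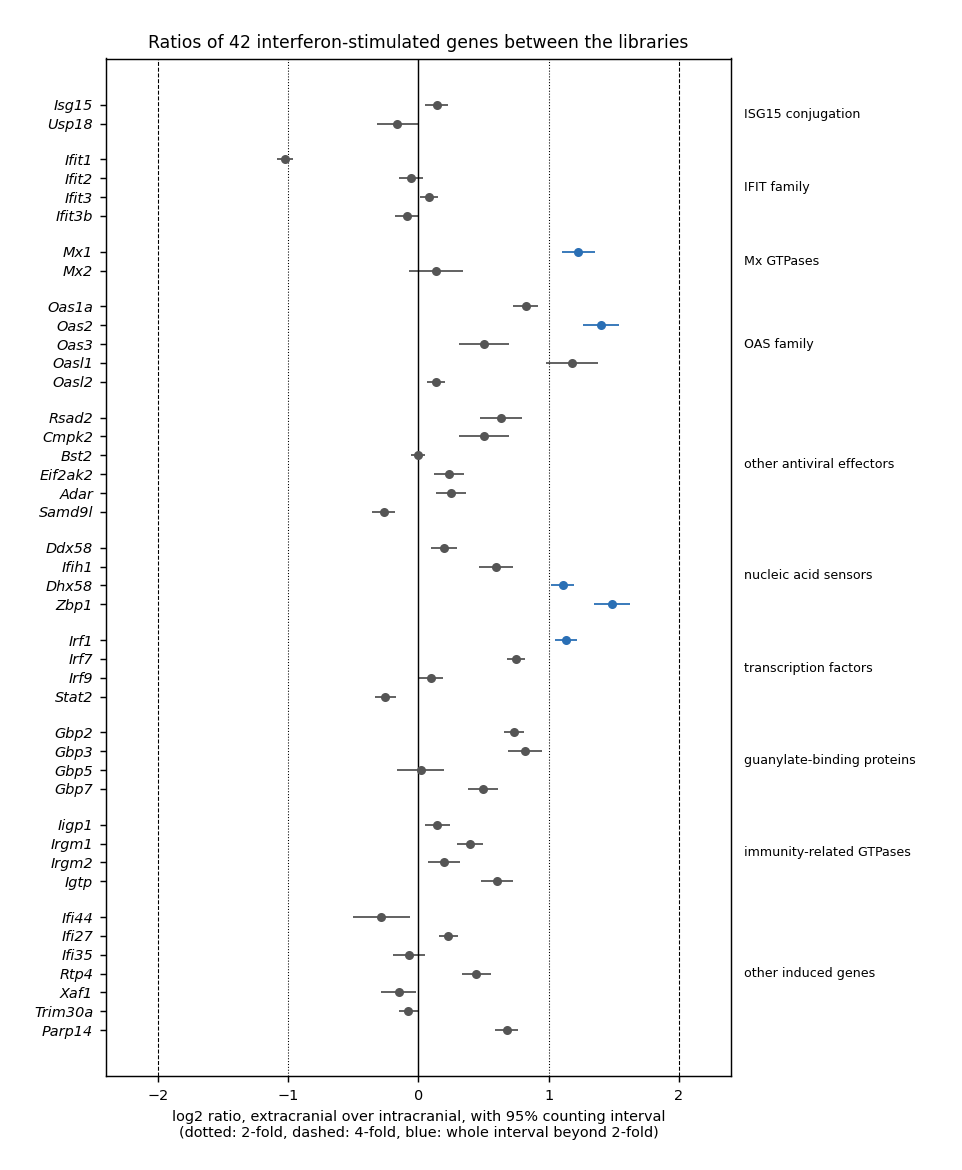
Log2 ratio of the extracranial over the intracranial library for each of the 42 genes by role, with 95% counting intervals, dotted lines at 2-fold and dashed lines at 4-fold. The 5 blue genes (Mx1, Oas2, Dhx58, Zbp1 and Irf1) lie wholly beyond 2-fold on the extracranial side, Ifit1 touches the line on the other side, and no interval reaches 4-fold.

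Genes of the same effector family often had different ratios. ISG15 is a ubiquitin-like protein that is attached to new proteins during the response, and USP18 removes it and also damps signalling at IFNAR2. Isg15 had 2385 counts in the intracranial and 2022 in the extracranial library (68.6 and 75.6 CPM, log2 ratio 0.14, interval 0.05 to 0.23). Usp18 had 841 and 579 counts (24.2 and 21.6 CPM, log2 ratio -0.16, interval -0.32 to -0.01). The genes thus differed by 1.10-fold and 1.12-fold between the tumors.

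The IFIT proteins bind viral RNA with foreign cap structures. Ifit1 (ENSMUSG00000034459, chromosome 19) had 7036 counts in the intracranial and 2664 in the extracranial library, or 202.5 and 99.6 CPM. This was 2.03-fold higher in the intracranial library, with a log2 ratio of -1.02 (interval -1.09 to -0.96), and Ifit1 was the gene with the lowest ratio of the 42. Its neighbours on chromosome 19 did not share this gap. Ifit2 had 65.7 and 63.2 CPM, Ifit3 had 106.0 and 111.9 CPM, and Ifit3b had 62.2 and 58.6 CPM, with log2 ratios of -0.06, 0.08 and -0.09. The counts of Ifit1 per count of Ifit3, a ratio that needs no scaling, were 1.91 in the intracranial and 0.889 in the extracranial library (log2 difference -1.10, interval -1.20 to -1.01). Ifit3 and Ifit3b shared 42.3% and 36.7% of their 72-base words (the read length) with each other, so reads may have been split or dropped between them, while Ifit1 shared 5.42% of its words with Ifit1bl2.

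The Mx proteins are dynamin-like GTPases that block virus replication. Mx1 (ENSMUSG00000000386, chromosome 16) had 774 counts in the intracranial and 1396 in the extracranial library, or 22.3 and 52.2 CPM (2.34-fold, log2 ratio 1.23, interval 1.10 to 1.36). Its neighbour Mx2 had 427 and 361 counts, or 12.3 and 13.5 CPM (log2 ratio 0.14, interval -0.07 to 0.34). Mx1 was thus higher in the extracranial library and Mx2 did not differ beyond counting error, and the count of Mx1 per count of Mx2 went from 1.81 to 3.87. In the GENCODE annotation of the C57BL/6 genome, Mx2 is listed as a polymorphic pseudogene. Whether Mx1 or Mx2 yields a working protein in these mice was not measured.

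The oligoadenylate synthetases make the second messenger that activates RNase L, and the OASL proteins are relatives of these enzymes. All 5 genes of the family had intervals above 0, with a median log2 ratio of 0.82. Oas2 (ENSMUSG00000032690, chromosome 5) had 622 counts in the intracranial and 1264 in the extracranial library, or 17.9 and 47.2 CPM (2.64-fold, log2 ratio 1.40, interval 1.26 to 1.54). Oasl1, a repressor of Irf7 translation in mice, had 332 and 579 counts, or 9.56 and 21.6 CPM (2.26-fold, interval 0.98 to 1.38 on the log2 scale). Oas1a had 43.9 and 77.7 CPM, a 1.77-fold difference, and shared 48.5% of its words with Oas1g. Smaller gaps were seen for Oas3 with 12.4 and 17.6 CPM and for Oasl2 with 98.7 and 108.4 CPM. Oasl2 thus had the highest CPM of the family and differed least. Per kilobase Oas1a stood higher, with 23.3 and 41.2 CPM per kilobase against 15.5 and 17.0 for Oasl2. The count of Oasl1 per count of Oasl2 went from 0.0968 to 0.200.

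Other antiviral effectors had a median log2 ratio of 0.24 and none passed 2-fold. Rsad2, which encodes viperin, had 16.6 and 25.7 CPM (log2 ratio 0.63), and its neighbour Cmpk2, a mitochondrial nucleotide kinase, had 12.5 and 17.6 CPM (0.50). Bst2 had 5813 and 4464 counts, or 167.3 and 166.8 CPM, with a log2 ratio of -0.004 and an interval from -0.06 to 0.05, so that the most abundant gene per length did not differ beyond its counting error. Eif2ak2, the RNA-activated kinase PKR that halts translation, had 37.2 and 43.6 CPM (0.23). Adar, an enzyme that edits adenosine in double-stranded RNA, had 37.3 and 44.3 CPM (0.25). Samd9l, an inhibitor of translation and growth, went the other way with 72.9 and 60.6 CPM (-0.27, interval -0.36 to -0.18).

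The nucleic acid sensors had the highest median ratio of the 10 roles, 0.85 on the log2 scale. Zbp1 (ENSMUSG00000027514, chromosome 2), a sensor of Z-form nucleic acids that can start necroptosis, had 637 counts in the intracranial and 1373 in the extracranial library, or 18.3 and 51.3 CPM (2.80-fold, log2 ratio 1.49, interval 1.35 to 1.62). Dhx58 (ENSMUSG00000017830, chromosome 11), the RIG-I-like receptor LGP2, had 1639 and 2717 counts, or 47.2 and 101.5 CPM (2.15-fold, log2 ratio 1.11, interval 1.02 to 1.20). The other RIG-I-like receptors differed less. Ifih1, which encodes MDA5, had 25.9 and 39.2 CPM (0.60), and Ddx58, which encodes RIG-I itself, had 50.7 and 58.2 CPM (0.20). The count of Dhx58 per count of Ddx58 was 0.931 in the intracranial and 1.75 in the extracranial library. Zbp1 and Dhx58 shared none of their 72-base words with another gene.

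Among the transcription factors, Irf1 and Irf7 were farther from 0 than Irf9 and Stat2. Irf1 (ENSMUSG00000018899, chromosome 11), an interferon-induced factor that drives antigen presentation genes, had 1710 and 2888 counts, or 49.2 and 107.9 CPM (2.19-fold, log2 ratio 1.13, interval 1.05 to 1.22). Irf7, the factor that amplifies interferon alpha production, had 88.2 and 148.1 CPM (1.68-fold, log2 ratio 0.75). Irf9 had 55.5 and 59.3 CPM with an interval that spanned 0, and Stat2 had 89.96 and 75.4 CPM (log2 ratio -0.26). The ISGF3 genes Irf9 and Stat2 thus had different ratios, and the count of Irf1 per count of Irf9 went from 0.886 to 1.82.

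The interferon-inducible GTPases, which attack the vacuoles of intracellular parasites and bacteria, had log2 ratios at or above 0. Of the guanylate-binding proteins, Gbp2 had 68.7 and 114.2 CPM (log2 ratio 0.73), Gbp3 had 24.4 and 42.9 CPM (0.82) and Gbp7 had 34.7 and 48.9 CPM (0.49). Gbp5 had 16.1 and 16.3 CPM (0.02, interval -0.17 to 0.20), although it lies in the same cluster on chromosome 3. The immunity-related GTPases differed less, with Igtp at 29.2 and 44.3 CPM (0.60), Irgm1 at 48.6 and 63.9 CPM (0.40), Irgm2 at 32.6 and 37.4 CPM (0.20) and Iigp1 at 52.2 and 57.8 CPM (0.15). No gene of either group passed 2-fold.

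The remaining induced genes had a median log2 ratio of -0.07. Parp14, an ADP-ribosyltransferase, had 54.3 and 86.7 CPM (0.68), Rtp4, a receptor chaperone, had 38.5 and 52.4 CPM (0.45), and Ifi27 had 90.6 and 106.1 CPM (0.23). The intervals of 3 genes lay below 0. These were Ifi44 with 12.8 and 10.5 CPM (-0.29), the apoptosis-related gene Xaf1 with 30.7 and 27.7 CPM (-0.15) and Trim30a, a regulator of inflammatory signalling, with 104.4 and 98.9 CPM (-0.08). Ifi35 had 36.0 and 34.3 CPM with an interval that spanned 0. Across all roles, the 7 genes lower in the extracranial library were thus Ifit1, Ifi44, Samd9l, Stat2, Usp18, Xaf1 and Trim30a, and Ifi44 differed by 1.22-fold, the largest gap among them after Ifit1.

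The ligands of the pathway were scarcely measured. Of 21 interferon genes, 18 were at 0 in both libraries, including all listed interferon alpha genes and interferon lambda genes, which at this depth allows a level of up to 0.106 CPM in the intracranial and 0.138 CPM in the extracranial library. Ifnb1 had 3 counts in each library, at the floor. Ifng, the product of activated T and NK cells, had 1 count in the intracranial and 10 in the extracranial library, a difference that rests on 11 counts. Ifnz had 20 and 23 counts, and it shared 67.4% of its words with other genes.

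The receptors were abundant in both tumors and mostly higher in the extracranial library. Ifnar1 had 3102 and 4479 counts (89.3 and 167.4 CPM, log2 ratio 0.91), and Ifnar2 had 1311 and 2762 counts (37.7 and 103.2 CPM, 1.45), the only receptor or kinase beyond 2-fold. The interferon gamma receptor chains had 161.9 and 189.2 CPM for Ifngr1 (0.23) and 59.0 and 120.5 CPM for Ifngr2 (1.03). Il10rb, a shared chain of the interferon lambda and interleukin 10 receptors, had 43.5 and 91.1 CPM (1.07). Its partner Ifnlr1, which confines the interferon lambda response mainly to epithelial cells, was low and went the other way, with 73 and 19 counts (2.10 and 0.710 CPM, -1.57, interval -2.38 to -0.82). The kinases Jak1, Jak2 and Tyk2 had log2 ratios of 0.41, 0.14 and 0.42.

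Several regulators further down the pathway were higher in the extracranial library. Of 9 signal transducers and interferon regulatory factors outside the 42, 4 were beyond 2-fold in the extracranial library and 0 in the intracranial library. The background over all genes tested, for this list and those below, was 5.86% in the extracranial and 9.77% in the intracranial library. Ciita, the master regulator of MHC class II genes, had 174 and 1363 counts (5.01 and 50.9 CPM, 10.2-fold), and Batf2 had 46 and 258 counts (7.28-fold), both beyond 4-fold. Irf8, a factor of myeloid cells and a target of interferon gamma, had 1497 and 4120 counts (43.1 and 154.0 CPM, 3.57-fold), and Irf5 was 2.31-fold higher. Irf3, which starts interferon beta transcription, had 50.5 and 57.9 CPM (log2 ratio 0.20).

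Of 13 sensors and adaptors outside the 42 genes, 5 were beyond 2-fold in the extracranial library and 0 in the intracranial library. These were Tmem173, which encodes STING (3.75-fold, 897 and 2588 counts), the endosomal receptors Tlr9 (3.15-fold) and Tlr8 (2.53-fold), the DNA sensor Aim2 (2.43-fold) and Trim25 (2.33-fold). The adaptor of RIG-I-like receptors, Mavs, had a log2 ratio of -0.22. Of 11 negative regulators tested, the phosphatases Ptpn6 (3.57-fold) and Ptpn1 (2.23-fold) were beyond 2-fold in the extracranial library and 0 in the intracranial library. The feedback inhibitor Socs1 had 254 and 236 counts (log2 ratio 0.27, interval 0.01 to 0.53), and Trex1 was at 0 in both libraries, a gene whose words were shared to 93.7% with Atrip.

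A second list of 60 interferon-stimulated genes, outside the 42, was also higher in the extracranial library for most of its genes. Of the 59 tested, 22 (37.3%) were beyond 2-fold in the extracranial and 2 in the intracranial library, with a median log2 ratio of 0.56, and they summed to 3267 and 4760 CPM. The 6 whose intervals kept farthest from equal levels were Phf11b (4.29-fold), Psmb9 (3.65-fold) and Psmb8 (3.24-fold) of the immunoproteasome, Mndal (3.31-fold), Sp110 (3.44-fold) and Uba7, the activating enzyme of ISG15 (3.07-fold). Lower in the extracranial library were Ly6a, with 9030 and 1491 counts (4.66-fold, beyond 4-fold), and Ifitm1, with 645 and 160 counts (3.10-fold). Ly6a encodes the surface antigen Sca-1, which is also carried by progenitor and endothelial cells. Several of these genes have near copies, and among the 42 genes of this list under 10% shared words, 14 were beyond 2-fold in the extracranial and 2 in the intracranial library. Ifi44l was at 0 in both libraries.

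Leukocyte markers were also higher in the extracranial library. The 5 pan-leukocyte genes (Ptprc, Cd53, Laptm5, Coro1a and Cd52) summed to 765.9 CPM in the intracranial and 1965 CPM in the extracranial library, and all 5 were beyond 2-fold. The 15 macrophage genes summed to 3569 and 10259 CPM, a ratio of 2.87, and none was at 0. Of these, 12 were beyond 2-fold in the extracranial library, led by Aif1, Cx3cr1, Adgre1, Fcgr1, Csf1r and Fcer1g. The other direction was seen for Cd163, 5.63-fold lower in the extracranial library, and Mertk, 1.48-fold lower with 1168 and 606 counts. The sum of the 42 interferon-stimulated genes had a ratio of 1.19 over the same libraries.

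Lymphoid and dendritic markers summed to higher levels in the extracranial library, apart from those of plasmacytoid dendritic cells. T cell genes summed to 35.2 and 69.4 CPM, with 6 of 13 beyond 2-fold (Trac, Cd4, Cd8a, Cd8b1, Cd2 and Lck). The T cell genes did not all share this direction. Cd5 and Cd247 had intervals below 0 (log2 ratios -0.77 and -0.53), and those of Cd3d, Cd3e and Cd3g spanned 0. NK cell genes summed to 3.51 and 21.6 CPM, with 4 of 7 beyond 2-fold (Klrk1, Gzmb, Prf1 and Nkg7). Conventional dendritic cell genes summed to 26.2 and 58.5 CPM, with 4 of 8 (Xcr1, Clec9a, Ccr7 and Batf3), and B and plasma cell genes to 333.0 and 756.2 CPM, with 3 of 10, Cd79b and Ighm among them. For plasmacytoid dendritic cells, the main producers of interferon alpha, Siglech (12 and 58 counts) and Spib (7 and 15 counts) had intervals above 0. Pacsin1 (66 and 19 counts) and Tcf4 had intervals below 0, and that of Ccr9 (20 and 14 counts) spanned 0. Klk1 and Cd300c had too few counts to be tested. The summed level of 222.5 and 162.0 CPM was nearly all Tcf4, which other cells express. No lymphoid or dendritic marker was at 0 in both libraries.

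Other markers differed in both directions. Endothelial genes summed to 216.7 and 367.5 CPM, with 4 of 9 beyond 2-fold in the extracranial library (Cdh5, Kdr, Esam and Tie1). Monocyte and neutrophil genes summed to 801.7 and 606.7 CPM. Most of the intracranial sum was S100a8 (258.2 CPM) and S100a9 (416.0 CPM), and most of the extracranial sum was Ccr2 (534.2 CPM). Ly6g of the same list had only 4 and 1 counts, and the cells that S100a8 and S100a9 came from were not tested. In this list, Ccr2 (8.99-fold) and Csf3r (2.89-fold) were higher in the extracranial library, and 7 genes were higher in the intracranial library. These were S100a8 (768-fold, 8970 and 9 counts), S100a9 (856-fold, 14455 and 13 counts), Cxcr2 (21.8-fold), Mmp8 (14.1-fold), Ly6c2 (2.31-fold), Retnlg (306 and 0 counts) and Camp (58 and 2 counts). Of the Schwann cell genes, Egr2 and Mag were higher in the extracranial library, and 5 were higher in the intracranial library, Sox10, S100b and Erbb3 among them. The part of these leukocyte, epithelial and vascular genes in the ratios of the 42 interferon-stimulated genes was not tested.

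**Figure D4:**
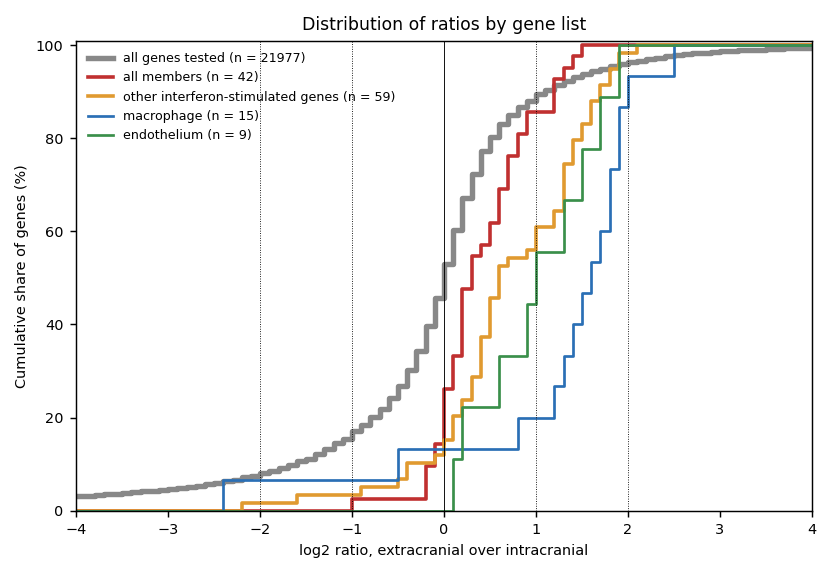
Cumulative share of genes (%) by log2 ratio of the extracranial over the intracranial library, for all 21977 genes tested (grey), the 42 interferon-stimulated genes (red), the other interferon-stimulated genes (orange), macrophage genes (blue) and endothelial genes (green), with dotted lines at 2-fold and 4-fold. The red curve is steep around its median of 0.23, which lies between the medians of all genes (-0.04) and of macrophage genes (1.57), and it holds no gene beyond 4-fold.

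Promoter words and ratios were set side by side as a description. The 20 genes with an ISRE-like word had a median log2 ratio of 0.22, and the 12 with a promoter window but without that word had 0.12. Among the 5 genes beyond 2-fold, only Irf1 had a window in the reference table, and it held a GAS-like word at 90 bases before its start site and no ISRE-like word. Ifit1, Ifit3 and Ifit3b each held 2 ISRE-like words in the promoters printed above, and their log2 ratios were -1.02, 0.08 and -0.09.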

How the data were processed

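RNA was extracted from fresh frozen tumors, selected for poly(A) and sequenced as stranded, single-end libraries. Per the submitters' processing notes and the study's methods, the authors checked reads with FastQC 0.11.9 and MultiQC 1.11, aligned them to GRCm39 with STAR 2.7.9a and counted genes with featureCounts. The deposited values are raw counts per Ensembl gene. Symbols, biotypes, chromosomes and exon lengths came from GENCODE M21 (GRCm38), used for names and lengths only, and 94.08% of 55416 identifiers had a symbol. Genes without a symbol held 0.694% and 0.950% of counts. One symbol, Mb21d1, was matched through a RefSeq synonym. The rule for the 42 genes used no measured value, but they, their roles and all other lists were chosen with earlier results of these data known.

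Libraries were scaled by TMM (edgeR 4.0.16, R 4.3.3). A single library per site left no residual spread, so edgeR's quasi-likelihood model was not applied and no p-value was computed. Ratios carry conditional exact binomial (Clopper-Pearson) 95% intervals (scipy 1.17.1), which treat reads as independent molecules and cover counting error only. Genes with 10 or more counts over both libraries were tested, and a gene counts as beyond 4-fold or 2-fold where its whole interval is. Counts of 3 or fewer were set to the floor of 3 counts (0.0863 and 0.112 CPM) for a ratio. Levels between genes are CPM per kilobase. The share of the 72-base words of a gene's transcripts that occur in another gene was counted, since such reads can be lost or split. All 42 genes were named. Of the pathway and cell type lists, genes with the whole interval beyond 2-fold were named, or the 6 farthest in each direction where over 12 qualified, plus ligands, receptors, Irf3, Irf8, Socs1 and Smarcb1. A few qualifying genes are not reported here. Jak1, Jak2, Tyk2, Mavs, Trex1, Ifi44l, Tcf4, Cd3d, Cd3e, Cd3g, Cd5 and Cd247 were named after their values were seen. The same holds for Mertk, Ly6g, Spib, Pacsin1, Ccr9, Klk1 and Cd300c. Scripts were tested on simulated data. Alternatives were other scalings (DESeq2 1.42.0, total counts, upper quartile), count filters, a prior count and leaving out genes with near copies.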

Additional observations from a re-analysis of the deposited data

How the results depend on the processing

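Of 89 alternative values computed, 87 stayed within the limits set for a change, but many of these could not move. The lowest count of the 42 genes was 332 in the intracranial and 282 in the extracranial library. The count filters, of at most 100 counts, therefore removed none of them, and the prior count was small beside their counts. Scaling by total counts cannot change ranks within a library. The 2 that moved were the median percentile of the 42 genes' level among all genes, which was 80.4 in the intracranial and 85.2 in the extracranial library on the CPM scale and 76.4 and 81.2 per kilobase. The median log2 ratio of the 42 genes ran from 0.212 with total counts to 0.267 with the upper quartile, and these scalings shifted all ratios by -0.017 and 0.038. Zbp1, Oas2, Mx1, Irf1 and Dhx58 were beyond 2-fold under all 4 scalings, and Oasl1 joined them under the upper quartile. With the ratio alone in place of its interval, 6 genes were beyond 2-fold in the extracranial and 1 in the intracranial library. Without the 9 genes named as having near copies, or among the 37 genes with under 10% shared words, an alternative chosen after seeing the data, the median log2 ratio was 0.227. No paired analysis was possible because there was a single library at either site. Leaving out a library would leave no comparison, and the depth limits only the scarce ligands, where 3 counts were the floor.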
